A study of Mus musculus with 4 samples.

Results

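Amino acids enter and leave mouse cells through membrane carriers of the solute carrier (Slc) families, and RNA of 6 of these families was followed in lymphoid tissue inducer (LTi) cells that could or could not delete Gata3. The genes were chosen by symbol alone, as every gene of the families Slc1, Slc3, Slc7, Slc36, Slc38 and Slc43 in the deposited table. That gave 42 of 27179 genes, all of them found in RefSeq under the same symbol.

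RNA sequencing was done on 4 libraries of LTi cells, a lymphotoxin-making kind of innate lymphoid cell. The cells were sorted from the lamina propria of the small intestine of C57BL/6 mice as live, lineage-negative cells with CD127 and CCR6 and without KLRG1, NK1.1 and NKp46. The VavCre group had 2 libraries of Gata3fl/flVavCre mice, in which the Vav promoter drives Cre throughout the blood lineages, so that the floxed alleles can be lost in other blood cells as well as in LTi cells. The control group had 2 libraries of Gata3+/+ mice, and the labels do not say that these carried VavCre. The age of the mice, and whether the libraries of a group came from separate mice, are not stated in the labels, so p-values measure only the spread between these libraries.

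The VavCre libraries held 24315878 and 23973995 reads, against 14294708 and 12670034 reads in the control libraries. Gata3, the targeted gene, was at 34.5 and 23.3 RPKM (reads scaled to gene length and library depth) in VavCre cells and at 84.3 and 50.7 RPKM in control cells, lower in both VavCre libraries (log2 difference −1.18 ± 0.36 SE, limma adjusted p = 0.0896). Ccr6, the chemokine receptor of the sort gate, was at 155 and 176 RPKM in VavCre cells and at 146 and 63.3 RPKM in control cells. Of 18 LTi markers tested, Il17a was called higher and Cd4 and Il22 lower in VavCre cells by limma, and all 18 had reads. At an unadjusted p under 0.05 limma had 2 of them higher and 5 lower, with a median log2 difference of −0.28. Without overlap of the genotypes, 7 of the 18 were lower and 5 higher in VavCre cells. Summed, the 18 markers, Il22 among them, came to 4301 and 5207 CPM (reads scaled to library depth) in VavCre cells. The control sums were 9072 and 6474 CPM. RNA of other cell types was present too and, except for stroma and endothelium, was higher in the VavCre libraries. Of the markers tested, 19 of 29 of epithelium, 19 of 23 of B and plasma cells, 8 of 21 of T cells, 4 of 19 of myeloid cells and 0 of 14 of stroma and endothelium were called higher and none lower by limma (unadjusted p under 0.05: 1 of the 14 higher; limma-voom called 0 of them), where 8.35% of all tested genes were called higher. In the same order the counts were 6, 2, 1, 1 and 0 after median-ratio scaling, which centres the typical gene ratio, and limma-voom on recovered reads called 9, 5, 1, 0 and 0 in either direction. None of the markers on these lists was at 0 in all 4 libraries.

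The carriers fall into classes by partner and substrate. Slc3 proteins are single-pass heavy chains that bring Slc7 light chains to the membrane, where the pairs exchange one amino acid for another. Slc1 carriers take up glutamate or small neutral amino acids with sodium, and Slc38 carriers take up glutamine and alanine. Some Slc36 and several Slc38 proteins work at the lysosome, and Slc43 proteins let large neutral amino acids pass without sodium. In lymphocytes, leucine and glutamine uptake by such carriers is known to feed mTORC1, the kinase complex that ties growth to amino acid supply.

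Reads were found for 37 of the 42 genes in at least 1 library and for 23 in all 4. The VavCre libraries had reads for 30 and 34 of the genes and the control libraries for 29 and 28. Over all 27179 genes of the table, the VavCre libraries, which were deeper, had reads for 16931 and 17497 and the control libraries for 15163 and 15614. A filter on low values left 28 genes to test, and 4 of these (Slc1a3, Slc36a1, Slc7a2 and Slc7a9) passed it through the VavCre libraries only. In limma on the deposited log2(RPKM + 1) scale, with adjustment over all 14213 tested genes and a threshold of 0.05, 4 carriers rose in VavCre cells (Slc7a9, Slc7a8, Slc38a7 and Slc1a3), 14.3% of the 28, where 8.35% of all tested genes were called higher and 9.04% in either direction. Slc1a3 and Slc7a9 are 2 of the 4 genes that passed the filter through the VavCre libraries only, so the share of the 28 cannot be read as more than a description. No carrier was called lower, where 0.69% of all tested genes were, and at an unadjusted p under 0.05 there were 9 carriers higher and 0 lower, against 30.5% of all tested genes in either direction. With limma-voom on recovered reads 0 carriers were called, and the 4 calls rested on all 4 libraries. With any 1 of the 4 libraries left out, the 4 carriers kept positive differences. That was fixed in advance, because both VavCre libraries lay above both control libraries for each of them.

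Most carrier RNA came from a few genes, none of which was called. On the RPKM scale, which is per length and so allows genes to be compared, Slc3a2, Slc1a5, Slc38a2, Slc38a1 and Slc38a10 made up 90.9% and 91.7% of the summed level of all 42 genes in the VavCre libraries and 94.6% and 94.2% in the control libraries. The summed level itself was 839.7 and 948 RPKM in VavCre cells and 886 and 776 RPKM in control cells, so the genotypes overlapped.

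**Figure D1:**
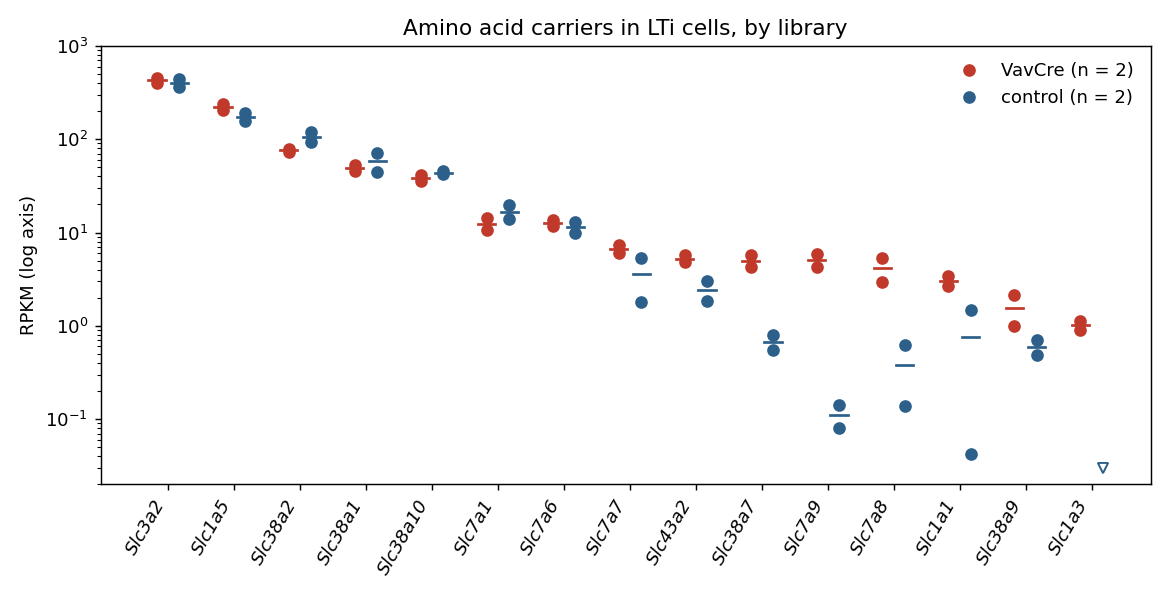
RPKM of each library on a log axis for the 15 carriers that were called or averaged at least 10 CPM (reads scaled to library depth) in either genotype, with VavCre (red) left of control (blue); short bars are means of 2 libraries. Slc3a2 stood highest, at 401.3 and 458 RPKM in VavCre cells and 446 and 359 RPKM in control cells, and the open triangle marks Slc1a3 in control cells, where neither library had a read.

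Slc3a2 (CD98 heavy chain, chr19:8706882-8723369, GRCm38), the partner of the leucine-carrying light chains, was the most abundant carrier. It was at 401.3 and 458 RPKM in VavCre cells and 446 and 359 RPKM in control cells, with means of 429.8 ± 40.3 and 403 ± 61.0 (SD, n = 2 each), and ranked 128 among the 14213 tested genes by mean level. The VavCre libraries lay within or just above the control range, and the difference was below its error (log2 0.10 ± 0.30 SE, limma adjusted p = 0.857; −0.50 after scaling the libraries to their median gene ratio). Slc1a5 (ASCT2, chr7:16781334-16798274), an exchanger of glutamine, alanine, serine and cysteine, was at 208 and 238 RPKM in VavCre cells and 158 and 189 RPKM in control cells. Both VavCre libraries lay above both control libraries, as they did for 54.0% of all tested genes, and the difference was not called (log2 0.36 ± 0.28, limma adjusted p = 0.432; −0.24 after scaling to the median gene ratio).

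The 3 abundant Slc38 carriers had negative differences, none called. Slc38a2 (SNAT2), a sodium-coupled carrier of alanine, serine and glutamine that amino acid shortage is known to induce, was at 73.4 and 78.9 RPKM in VavCre cells and 120.2 and 92.3 RPKM in control cells. Its VavCre libraries were both below its control libraries, an order that 7.58% of all tested genes shared, but the difference was not called (log2 −0.46 ± 0.28, limma adjusted p = 0.304). Slc38a1 (SNAT1), a related glutamine carrier, was at 45.5 and 53.6 RPKM in VavCre cells and 71.7 and 44.1 RPKM in control cells, which overlapped (log2 −0.19 ± 0.32, limma adjusted p = 0.737). Slc38a10, a less studied member of the family, was at 35.6 and 41.3 RPKM in VavCre cells and 41.9 and 45.9 RPKM in control cells (log2 −0.19 ± 0.26, limma adjusted p = 0.665). Its libraries did not overlap either, by a narrow margin. The level order of these 5 carriers was Slc3a2, Slc1a5, Slc38a2, Slc38a1, Slc38a10 in 3 of the 4 libraries, and control replicate 2 had Slc38a10 above Slc38a1.

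Slc7a1 (CAT1), the main carrier of arginine and lysine in many cells, was at 14.4 and 10.5 RPKM in VavCre cells and 19.6 and 13.9 RPKM in control cells (log2 −0.39 ± 0.32, limma adjusted p = 0.447). Slc7a6 (y+LAT2), a light chain that exchanges arginine for neutral amino acids, was at 13.6 and 11.7 RPKM in VavCre cells and 9.85 and 12.8 RPKM in control cells (log2 0.15 ± 0.30, limma adjusted p = 0.762; −0.40 after scaling to the median gene ratio). Both genes had overlapping genotypes.

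**Figure D2:**
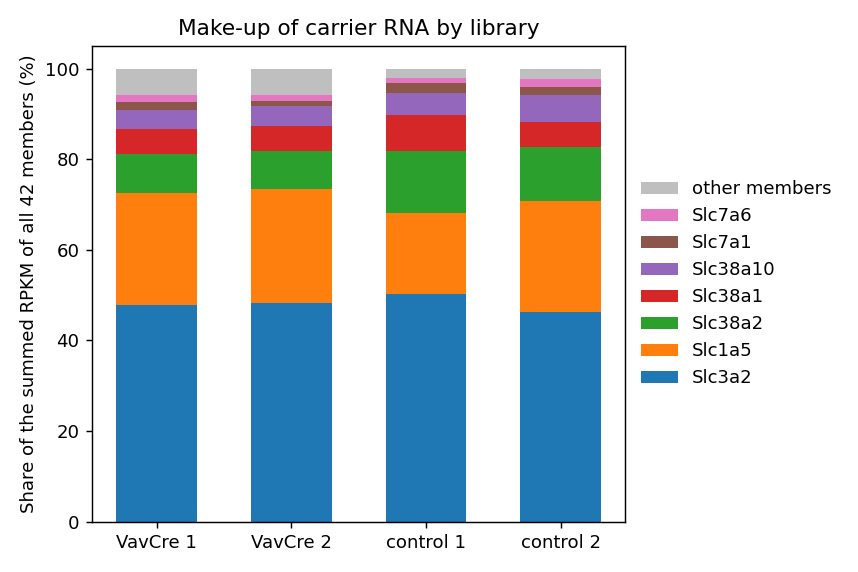
Share of the summed RPKM of all 42 carriers taken by each of the 7 most abundant and by the others together, in percent, for the 2 VavCre libraries (left) and the 2 control libraries (right). Slc3a2 took 47.8% and 48.3% in VavCre and 50.3% and 46.3% in control, and system A (Slc38a1, Slc38a2 and Slc38a4) took 14.2% and 14.0% in VavCre and 21.7% and 17.6% in control.

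The make-up within a library does not depend on how libraries are scaled to each other. System A, the glutamine and alanine uptake system of Slc38a1, Slc38a2 and Slc38a4, held 14.2% and 14.0% of carrier RPKM in VavCre cells and 21.7% and 17.6% in control cells. Slc1a5 held 24.7% and 25.1% in VavCre cells and 17.9% and 24.4% in control cells. For Slc38a2 over Slc1a5, a pair of glutamine carriers chosen after their values were seen, the RPKM ratio was 0.354 and 0.332 in VavCre cells and 0.759 and 0.487 in control cells, without overlap and without a test. The 6 light chains known to pair with Slc3a2 (Slc7a5, Slc7a6, Slc7a7, Slc7a8, Slc7a10 and Slc7a11) summed to 25.3 and 26.3 RPKM in VavCre cells and 18.9 and 16.8 RPKM in control cells. Slc3a2 RNA was thus 15.9 and 17.5 times the RNA of its light chains in VavCre cells and 23.6 and 21.4 times in control cells.

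The called carriers were all of low abundance. Their promoter windows are shown because the deleted gene encodes a factor that binds GATA letters. Each window is 190 bases of RefSeq sequence (GRCm38.p6), from 250 to 61 bases before the start that RefSeq gives, 5′ to 3′ on the strand of the gene, with matches on either strand to AGATAA or AGATAG, or to TGATAA or TGATAG, in capitals.
Slc7a9: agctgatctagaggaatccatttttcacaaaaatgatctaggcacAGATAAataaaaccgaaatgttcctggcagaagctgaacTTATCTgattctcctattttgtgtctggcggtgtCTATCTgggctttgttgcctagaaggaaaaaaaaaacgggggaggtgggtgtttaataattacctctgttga
Slc7a8: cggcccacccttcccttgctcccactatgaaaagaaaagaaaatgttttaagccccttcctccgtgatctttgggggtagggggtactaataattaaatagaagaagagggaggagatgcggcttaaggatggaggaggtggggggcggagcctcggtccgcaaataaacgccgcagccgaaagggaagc
Slc38a7: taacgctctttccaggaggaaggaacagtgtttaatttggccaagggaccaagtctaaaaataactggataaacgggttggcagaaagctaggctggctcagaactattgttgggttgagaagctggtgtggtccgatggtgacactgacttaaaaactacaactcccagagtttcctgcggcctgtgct
Slc1a3: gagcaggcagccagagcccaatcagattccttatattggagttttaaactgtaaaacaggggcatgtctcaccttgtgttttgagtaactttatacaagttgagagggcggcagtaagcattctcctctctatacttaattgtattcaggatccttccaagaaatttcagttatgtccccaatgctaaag
The windows lie at chr7:35448842-35449031 (plus strand, Slc7a9), chr14:54781947-54782136 (minus, Slc7a8), chr8:95853552-95853741 (minus, Slc38a7) and chr15:8710868-8711057 (minus, Slc1a3). The Slc7a9 window lies inside the span that RefSeq gives the gene, which begins earlier, and the end of the Slc38a7 window lies inside the span of its gene too. The Slc7a9 window held 3 GATA matches and the windows of Slc7a8, Slc38a7 and Slc1a3 held 0, while 22.4% of all 32851 mouse windows of this length, and 4 of the 20 tested carriers with a window, held at least 1. The composite ATF4 element TGATGNAA, searched on both strands, was in 0 of the 4 windows, so none overlapped a GATA match, and in 2.54% of all windows. A match is only a description of letters, and its absence from a window says nothing about the factor.

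Slc7a9 (b0,+AT, Entrez 30962, chr7:35448727-35466034) is the light chain that takes up cystine and dibasic amino acids in the brush border of the small intestine and kidney. It was at 4.25 and 5.82 RPKM in VavCre cells, from 205 and 277 reads, and at 0.141 and 0.0796 RPKM in control cells, from 4 and 2 reads. The means were 5.04 ± 1.11 and 0.110 ± 0.0435 RPKM (SD, n = 2 each). The log2(RPKM + 1) difference was 2.43 ± 0.33 (SE, limma adjusted p = 0.0191). The scale understates the change of genes as low as this. Slc7a9 passed the filter through the VavCre libraries only, which fixed the sign of its difference, so the gap and the p-value are only a description.

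Slc7a8 (LAT2, Entrez 50934, chr14:54722215-54781886), the light chain of neutral amino acid exchange known from the basolateral side of epithelia, was at 2.95 and 5.36 RPKM in VavCre cells and 0.139 and 0.626 RPKM in control cells. Both VavCre libraries stood above both control libraries, and the means of 4.15 ± 1.70 and 0.382 ± 0.345 RPKM were 10.9-fold apart (log2 difference 1.88 ± 0.39, limma adjusted p = 0.0401). The libraries within each genotype differed more here than for Slc7a9, and with a pseudocount of 0.1 the difference was not called (limma adjusted p = 0.0621).

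Slc38a7 (SNAT7, Entrez 234595, chr8:95835920-95853577), known to export glutamine and asparagine from lysosomes, was at 4.25 and 5.68 RPKM in VavCre cells and 0.789 and 0.553 RPKM in control cells. The genotypes did not overlap, and the means of 4.96 ± 1.01 and 0.671 ± 0.167 RPKM were 7.40-fold apart (log2 difference 1.83 ± 0.34, limma adjusted p = 0.0319). Slc1a3 (GLAST, Entrez 20512, chr15:8634124-8710807), the glutamate carrier best known from astrocytes, was at 0.909 and 1.12 RPKM in VavCre cells, from 93 and 113 reads, and neither control library had a read. Set against a floor of 3 reads per control library, its RPKM was at least 19.1-fold higher in VavCre cells (log2 difference 1.01 ± 0.22, limma adjusted p = 0.0430). Like Slc7a9, Slc1a3 passed the filter through the VavCre libraries only, which fixed its sign, so these values are only a description.

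Summed markers of epithelium, B and plasma cells, T cells and myeloid cells were higher in both VavCre libraries, as were these 4 carriers. In bulk RNA, fewer cells of a type and less RNA per cell cannot be told apart. Epithelial markers summed to 6489 and 10719.5 CPM in VavCre cells and 3321 and 3775 CPM in control cells, and Epcam, an adhesion protein of epithelial cells, was at 135 and 163 RPKM in VavCre cells and 21.7 and 20.5 RPKM in control cells. B and plasma cell markers summed to 9073 and 5679 CPM in VavCre cells and 1144 and 1445 CPM in control cells, T cell markers to 2243 and 1239 CPM in VavCre cells and 898 and 749 CPM in control cells, and myeloid markers to 276 and 566 CPM in VavCre cells and 90.9 and 109 CPM in control cells. Stromal and endothelial markers overlapped, at 424 and 526 CPM in VavCre cells and 310 and 590 CPM in control cells. Between the VavCre libraries, the B and plasma cell and T cell sums were higher in replicate 1. The epithelial, myeloid, and stromal and endothelial sums were higher in replicate 2, as were the 4 carriers. The part of these cells in the carrier results was not tested.

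The carriers were also set against Epcam, which differed more between genotypes than the summed epithelial markers did, so the ratios depend on the marker chosen. Per 100 RPKM of Epcam, Slc7a9 was at 3.14 and 3.58 RPKM in VavCre cells and 0.650 and 0.388 RPKM in control cells. These did not overlap, but the control values rest on 4 and 2 reads of Slc7a9. Slc38a7 was at 3.14 and 3.49 RPKM per 100 RPKM of Epcam in VavCre cells and 3.64 and 2.70 RPKM in control cells, which overlapped. Slc7a8 overlapped as well, at 2.18 and 3.29 RPKM per 100 RPKM of Epcam in VavCre cells and 0.640 and 3.06 RPKM in control cells. Per 100 RPKM of Cdh1, the cadherin of epithelial cells, Slc7a9 was at 17.8 and 22.3 RPKM in VavCre cells and 4.94 and 3.37 RPKM in control cells, in the same order as with Epcam. Slc38a7 was at 17.8 and 21.8 RPKM per 100 RPKM of Cdh1 in VavCre cells and 27.6 and 23.4 RPKM in control cells, lower in both VavCre libraries. Slc7a8 overlapped again, at 12.4 and 20.5 RPKM per 100 RPKM of Cdh1 in VavCre cells and 4.86 and 26.5 RPKM in control cells. Slc1a1, a carrier that was not called, was at 1.96 and 2.11 RPKM per 100 RPKM of Epcam in VavCre cells and 6.78 and 0.208 RPKM in control cells, which overlapped. These ratios were given no test, and Slc1a3 had no control reads to set against a marker.

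**Figure D3:**
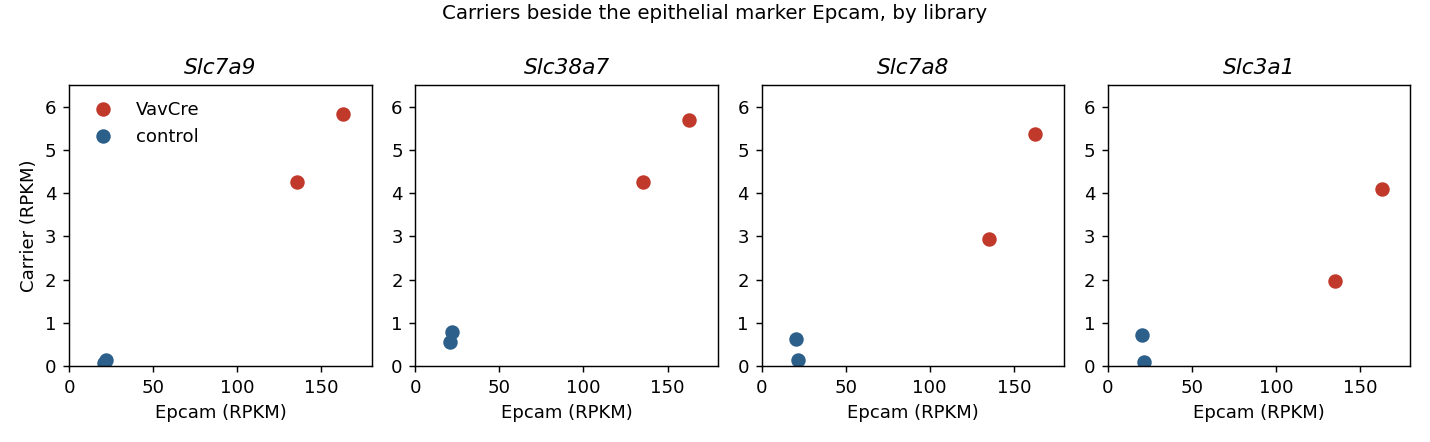
RPKM of Slc7a9, Slc38a7, Slc7a8 and Slc3a1 (vertical axes) against RPKM of the epithelial marker Epcam (horizontal axes), 1 point per library, VavCre in red and control in blue. The 2 VavCre libraries stand at 135 and 163 RPKM of Epcam with all 4 carriers high, and the 2 control libraries at 21.7 and 20.5 RPKM with all 4 low.

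Slc3a1 (rBAT), the heavy chain that pairs with Slc7a9, was at 1.98 and 4.09 RPKM in VavCre cells and 0.0910 and 0.719 RPKM in control cells. It had the same order as its partner but was not called (log2 1.51 ± 0.42, limma adjusted p = 0.0718), and its exons overlap those of Prepl on the opposite strand by 601 bases, so reads of the pair could not be told apart without strand. Together Slc3a1 and Slc7a9 summed to 6.23 and 9.91 RPKM in VavCre cells and 0.232 and 0.799 RPKM in control cells. Per 100 RPKM of Epcam, Slc3a1 was at 1.46 and 2.51 RPKM in VavCre cells and 0.420 and 3.51 RPKM in control cells, which overlapped.

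Among the other partners of Slc3a2, Slc7a7 (y+LAT1), known for arginine and lysine export from epithelial cells and macrophages, was at 5.97 and 7.36 RPKM in VavCre cells and 5.36 and 1.80 RPKM in control cells. The gap between the control libraries was wider than the gap between genotypes, and the difference was not called (log2 0.86 ± 0.46, limma adjusted p = 0.260). It was 0.26 without control replicate 2 and 1.45 without control replicate 1. Its exons overlap those of Oxa1l on the opposite strand by 232 bases. Slc7a5 (LAT1), the leucine carrier that activated T cells are known to induce, was low, at 2.56 and 1.56 RPKM in VavCre cells and 3.35 and 1.35 RPKM in control cells, with overlapping genotypes (log2 −0.08 ± 0.43, limma adjusted p = 0.920). Slc7a11 (xCT), the cystine and glutamate exchanger, was lower still, at 0.174 and 0.280 RPKM in VavCre cells and 0.190 and 0.222 RPKM in control cells (log2 0.02 ± 0.19, limma adjusted p = 0.949). Slc7a10 (Asc-1) had no read in any library.

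Of the Slc1 family, Slc1a1 (EAAC1), a carrier of glutamate and cysteine in neurons and epithelia, was at 2.65 and 3.43 RPKM in VavCre cells and 1.47 and 0.0426 RPKM in control cells. The genotypes did not overlap and the difference was not called (log2 1.33 ± 0.47, limma adjusted p = 0.124). It was 0.70 without control replicate 2 and 1.95 without control replicate 1. Its exons overlap those of 4430402I18Rik on the opposite strand by 2631 bases. Slc1a4 (ASCT1), a carrier of alanine, serine and cysteine, was at 4.42 and 1.36 RPKM in VavCre cells and 0.0713 and 1.37 RPKM in control cells, with replicates 2 of both genotypes at nearly the same level (log2 1.17 ± 0.56, limma adjusted p = 0.216). The glutamate carriers Slc1a6 and Slc1a7 had no reads, and Slc1a2 had 0.0239 and 0.0933 RPKM in VavCre cells and 0.0116 and 0 RPKM in control cells, under the filter.

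The carriers of the Slc43 family had positive log2 differences, none called by limma. Both VavCre libraries lay above both control libraries for Slc43a1 and Slc43a2, as for 54.0% of all tested genes, but not for Slc43a3. Slc43a2 (LAT4) was at 5.73 and 4.77 RPKM in VavCre cells and 3.05 and 1.84 RPKM in control cells, with no overlap (log2 0.88 ± 0.35, limma adjusted p = 0.152). Slc43a1 (LAT3) was at 1.14 and 1.64 RPKM in VavCre cells and 0 and 0.270 RPKM in control cells, again with no overlap (log2 1.08 ± 0.28, limma adjusted p = 0.0610). Slc43a3, known rather as a purine nucleobase carrier, was at 3.98 and 2.53 RPKM in VavCre cells and 0.807 and 2.85 RPKM in control cells, which overlapped (log2 0.67 ± 0.46, limma adjusted p = 0.372).

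The lysosomal carriers included Slc38a9, the arginine sensor of mTORC1, at 0.987 and 2.15 RPKM in VavCre cells and 0.487 and 0.700 RPKM in control cells. The genotypes did not overlap and the difference was not called (log2 0.66 ± 0.34, limma adjusted p = 0.252), and it was 0.32 without VavCre replicate 2. Slc36a1 (PAT1), a proton-coupled carrier of small neutral amino acids, was at 1.41 and 0.316 RPKM in VavCre cells and 0 and 0.0449 RPKM in control cells (log2 0.80 ± 0.32, limma adjusted p = 0.153). Slc36a4 was at 1.87 and 2.45 RPKM in VavCre cells and 0.614 and 2.53 RPKM in control cells and overlapped (log2 0.40 ± 0.45, limma adjusted p = 0.590).

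The other 5 tested carriers had log2 differences between −0.00 for Slc7a3 and 0.70 for Slc7a4, none called by limma. Slc7a4, an orphan of the cationic group, had exons that overlap P2rx6 on the opposite strand by 554 bases. Slc38a3 and Slc38a6, Slc7a3 (CAT3) and Slc7a4 had overlapping genotypes. Slc7a2 (CAT2), the arginine carrier of activated macrophages, was at 0.141 and 0.218 RPKM in VavCre cells and 0.00890 and 0 RPKM in control cells.

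Of the 14 carriers not tested, 5 had no read in any library (Slc1a6, Slc1a7, Slc7a10, Slc7a12 and Slc36a2), where 3 reads would have been 0.123 and 0.125 CPM in the VavCre libraries and 0.210 and 0.237 CPM in the control libraries. The other 9 were detected under the filter. Besides Slc1a2 these were Slc7a13, Slc7a14, Slc7a15, Slc36a3, Slc38a4, Slc38a5, Slc38a8 and Slc38a11, and their highest level was 0.510 RPKM, reached by Slc38a5, a glutamine and histidine carrier, in control replicate 2. Slc38a4 (SNAT4), the liver form of system A, had 0.0314 and 0.0212 RPKM in VavCre cells and 0.0178 and 0 RPKM in control cells, so system A in these cells was Slc38a1 and Slc38a2.

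**Figure D4:**
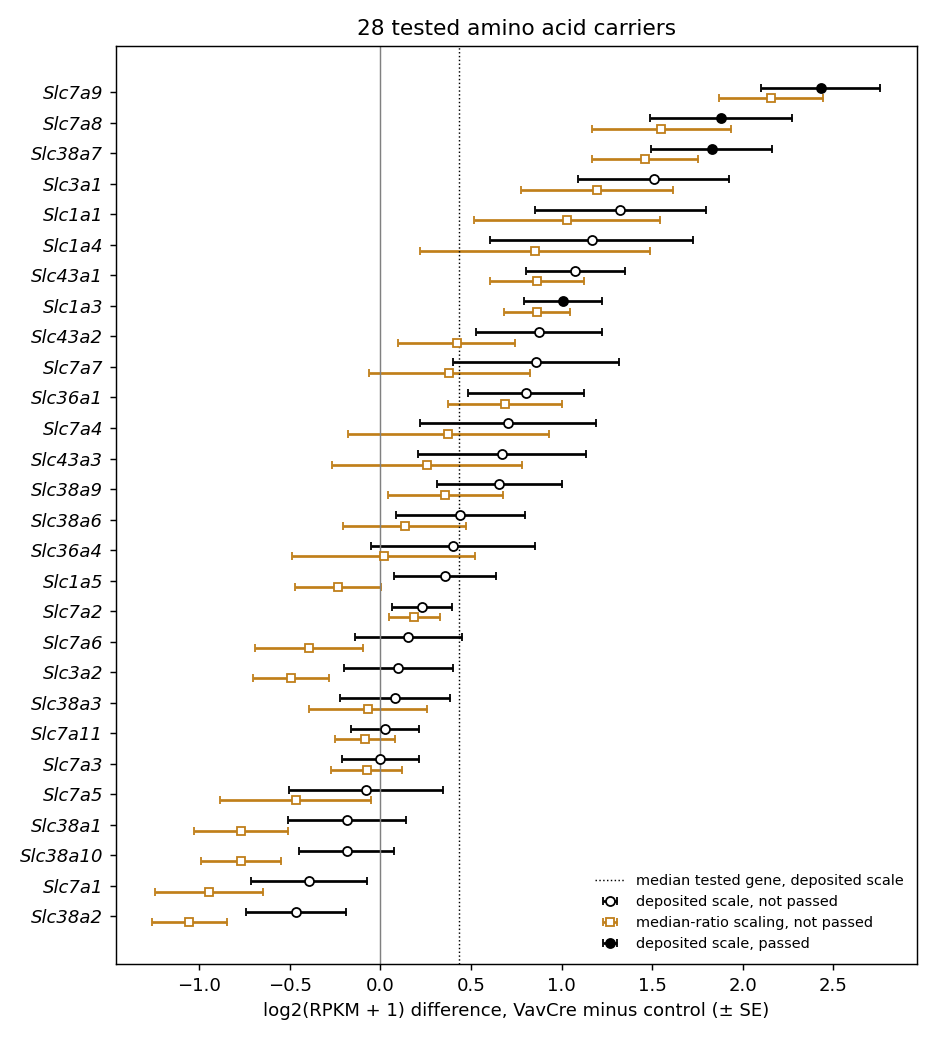
Log2(RPKM + 1) difference, VavCre minus control, with its SE for the 28 tested carriers, on the deposited scale (black circles, filled where called by limma) and after median-ratio scaling (orange squares, none called); the dotted line is the median of all 14213 tested genes on the deposited scale, 0.43. The carriers at the top kept positive values under both scalings, while all 7 carriers with a mean of at least 10 RPKM were negative after median-ratio scaling.

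The direction of Slc3a2, Slc1a5 and Slc7a6 depended on how libraries were scaled. On the deposited scale, where each library is divided by its own total, the median of all tested genes lay 0.43 log2 units higher in VavCre cells, and after median-ratio scaling it lay at 0.04. Relative to the median gene of each scale, the difference was 2.00 and 2.11 for Slc7a9, 1.45 and 1.51 for Slc7a8, 1.39 and 1.42 for Slc38a7, and 0.57 and 0.82 for Slc1a3, deposited and median-ratio. After median-ratio scaling limma called 0 carriers (unadjusted p under 0.05: 6 higher and 4 lower), where 0.598% of all tested genes were called higher, 0.436% lower and 1.03% in either direction, and Slc7a9 came closest (log2 2.16 ± 0.29, adjusted p = 0.0507). Of the 28 tested carriers, 22 had positive and 6 negative differences on the deposited scale, against 17 and 11 after median-ratio scaling. On the deposited scale the VavCre libraries lay above both control libraries for 13 carriers and below them for 2, where 54.0% of all tested genes lay above and 7.58% below. After median-ratio scaling they lay above for 10, where 29.7% of all tested genes did, and below for 6, where 25.7% did.

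The carriers were also described by level. The 7 carriers with a mean of at least 10 RPKM had a median log2 difference of −0.19 (range −0.46 to 0.36), where the 4754 tested genes at that level had a median of 0.46. After median-ratio scaling all 7 were negative, with a median of −0.77 (range −1.05 to −0.24), where genes at that level had a median of −0.11 and 2700 of 4754 were negative. Slc38a2 lay lowest there, with a log2 difference of −1.05 ± 0.21 (limma adjusted p = 0.0791), followed by Slc7a1 at −0.95 (adjusted p = 0.158) and by Slc38a1 and Slc38a10, both at −0.77 (adjusted p = 0.177 and 0.135). The 21 carriers under 10 RPKM had a median of 0.80 on the deposited scale, with 19 positive and 2 negative, where the 9459 tested genes at that level had a median of 0.42. Slc1a3, Slc36a1, Slc7a2 and Slc7a9 are among the 21 and passed the filter through the VavCre libraries only, which fixed their sign. The median and the signs of the 21 are thus set in part by the filter and are only a description, not a test against the abundant carriers. Median-ratio scaling put the median of the 21 at 0.38, with 17 positive and 4 negative, where genes at that level had a median of 0.10.

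Genes that work with the carriers were followed through 5 lists. Of 21 other carriers of amino acids and peptides, mostly of the Slc6 and Slc15 families and including the lysosomal Ctns, Slc66a1, Slc15a3 and Slc15a4, 13 were tested and 0 called by limma (unadjusted p under 0.05: 0 higher and 1 lower; limma-voom called 0), with a median log2 difference of −0.02. The gene behind that lower value was Slc16a10 (TAT1), a carrier of aromatic amino acids, at 2.89 and 3.20 RPKM in VavCre cells and 6.55 and 15.3 RPKM in control cells (log2 −1.46 ± 0.43, limma adjusted p = 0.0855). It was named after its values were seen.

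Of the mitochondrial amino acid carriers 2 of 11 tested rose and 0 fell, where 8.35% of all tested genes were called higher and 0.69% lower, with a list median of 1.05. Slc25a12, an aspartate and glutamate carrier of the inner membrane, was at 18.5 and 20.5 RPKM in VavCre cells and 6.82 and 7.40 RPKM in control cells (log2 1.34 ± 0.28, limma adjusted p = 0.0395). Sfxn1, the mitochondrial serine carrier, was at 15.6 and 25.4 RPKM in VavCre cells and 6.30 and 3.31 RPKM in control cells (log2 1.90 ± 0.40, limma adjusted p = 0.0402). Both had VavCre libraries well above the control libraries.

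Of 40 genes by which mTORC1 senses amino acids, 1 rose and 0 fell, where 8.35% of all tested genes were called higher and 0.69% lower. At an unadjusted p under 0.05 limma had 15 of the 40 higher and 2 lower, where 30.5% of all tested genes had such a p in either direction. The list median was 0.43, as over all tested genes. The 1 gene was Wdr24, a subunit of the GATOR2 complex, at 16.3 and 14.3 RPKM in VavCre cells and 6.12 and 5.78 RPKM in control cells (log2 1.23 ± 0.28, limma adjusted p = 0.0498).

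Of the response to amino acid shortage through GCN2 and ATF4, 6 of 27 tested genes rose, where 8.35% of all tested genes did, and 0 fell. The list median was 0.45, and at an unadjusted p under 0.05 limma had 10 genes higher and 2 lower. Summed over the list, the genotypes overlapped, at 2561 and 2900 CPM in VavCre cells and 4668 and 2840 CPM in control cells. Ddit4, an inhibitor of mTORC1, was at 87.2 and 89.9 RPKM in VavCre cells and 32.6 and 30.8 RPKM in control cells (log2 1.45 ± 0.25, limma adjusted p = 0.0284). Shmt1, which makes glycine from serine, was at 13.8 and 14.2 RPKM in VavCre cells and 0.881 and 3.02 RPKM in control cells (log2 2.45 ± 0.43, limma adjusted p = 0.0296). Pycr1, the last enzyme of proline synthesis, was at 8.44 and 7.60 RPKM in VavCre cells and 1.25 and 2.11 RPKM in control cells (log2 1.77 ± 0.34, limma adjusted p = 0.0341). In none of these did the genotypes overlap. Cth, which makes cysteine, was at 4.45 and 7.97 RPKM in VavCre cells and 0.971 and 0.920 RPKM in control cells (log2 1.85 ± 0.37, limma adjusted p = 0.0377). Atf4 itself, named after its values were seen, was at 211 and 206 RPKM in VavCre cells and 349 and 216 RPKM in control cells, lower in both VavCre libraries and not called (log2 −0.39 ± 0.34, limma adjusted p = 0.469).

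Of 20 cytosolic aminoacyl-tRNA synthetases, the enzymes that load amino acids onto tRNA, 3 rose, where 8.35% of all tested genes did, and 0 fell. The list median was 0.73, and at an unadjusted p under 0.05 limma had 11 genes higher and 0 lower. Their summed RNA overlapped, at 2532 and 2766 CPM in VavCre cells and 3342 and 2163 CPM in control cells. Kars, for lysine, was at 41.5 and 52.8 RPKM in VavCre cells and 15.8 and 16.2 RPKM in control cells (log2 1.49 ± 0.27, limma adjusted p = 0.0314). Gars, for glycine, was at 37.0 and 34.6 RPKM in VavCre cells and 13.9 and 12.3 RPKM in control cells (log2 1.39 ± 0.26, limma adjusted p = 0.0333). Wars, for tryptophan, was at 41.8 and 38.7 RPKM in VavCre cells and 7.26 and 15.5 RPKM in control cells (log2 1.82 ± 0.38, limma adjusted p = 0.0405). The genotypes overlapped in none of these 3. After median-ratio scaling 0 genes of the 5 lists were called, and the list medians were −0.26 for the other amino acid and peptide carriers, 0.53 for the mitochondrial carriers, 0.05 for mTORC1 sensing, −0.06 for GCN2 and ATF4 and 0.17 for the synthetases. The higher B and plasma cell, T cell and epithelial markers stood beside these genes too, and their part was not tested.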

How the data were processed

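RNA of sorted LTi cells was extracted with a miRNeasy Micro kit and made into libraries by Smart-seq2, which covers whole transcripts and uses no molecular identifiers, as the labels' protocols state. Subread and featureCounts on mm10 are named for read processing, per the submitters' processing notes. The sources used here do not give versions, annotation or the use of strand. The deposited values are on a log2 scale, log2(RPKM + 1) with 0.0001 added, as worked out from the values, each library scaled to its own total.

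Whole reads were recovered as the smallest numbers that fit the values. All genes with reads gave whole numbers within 0.001 reads, and together they came to 98.7% and 98.6% of the VavCre totals and 98.9% and 99.0% of the control totals. They served for depth, the filter and scaling. Floors cover counting error only. Most symbols in the table are in capitals, so they were matched without regard to case.

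Genes with at least 0.5226 CPM in 2 libraries and 15 reads in total were fitted in limma 3.58.1 (R 4.3.3, trend and robust variance, pseudocount 1, two-sided, Benjamini-Hochberg), VavCre against control. The fit was tested on simulated data. In the simulation it detected 3.6% of the differences set at 2-fold, 57.6% of those at 4-fold and 90.8% of those at 8-fold. False calls made up 5.21% of its calls. A missing call therefore does not show that a gene was unchanged, least of all for differences near 2-fold. The fit was repeated with a replicate block, with libraries left out, with a pseudocount of 0.1, with limma-voom, with scaling by TMM, median ratio or upper quartile, and with a filter at 5 CPM or none. Values are given in every library for carriers that were called or averaged at least 10 CPM in a genotype, by rule, and for up to 4 called genes, by adjusted p, of each other list. Values of further carriers are added to account for every one. The carriers, lists and tests were chosen with earlier results of these data known. Python 3.11.15, numpy 2.4.6, pandas 2.3.3 and matplotlib 3.10.9 did the rest. Coordinates are from RefSeq (GRCm38.p6) and overlaps from GENCODE on GRCm38.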

Additional observations from a re-analysis of the deposited data

How the results depend on the processing

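The 4 calls among the carriers rested on the deposited scale and on all 4 libraries. Carriers called higher numbered 4, and 0 under median-ratio scaling alone or with the replicate block, no filter and limma-voom, and 1 (Slc7a9) under upper-quartile and TMM scaling. With a pseudocount of 0.1 it was 3, and Slc7a8 lost its call (adjusted p = 0.0621). With a filter of 5 CPM it was 3, and Slc1a3 was not tested. The 4 kept a positive difference under every setting that tested them, a sign that the filter of the main fit had fixed for Slc1a3 and Slc7a9. With a library left out, the sign could not turn for any of the 4, since their genotypes did not overlap. Genes of the whole table called higher numbered 1187, and 85 under median-ratio scaling, 119 under upper-quartile, 111 under TMM, 0 without a filter, 71 under limma-voom, 781 with a pseudocount of 0.1 and 19 with median-ratio scaling and the block. Genes called lower numbered 98, and 62 under median-ratio scaling, 0 without a filter, 19 under limma-voom and 7 with median-ratio scaling and the block. Without a filter, 4336 genes had an unadjusted p under 0.05. Genes of the 5 lists called higher numbered 12, and 0 under TMM, upper-quartile and median-ratio scaling (the last also with the block), without a filter and under limma-voom, 22 with a filter of 5 CPM, 7 with a pseudocount of 0.1 and 6 with the block. The cause of these moves was not tested.

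With any of the 4 libraries left out, 0 carriers, 0 genes of the lists and 0 genes of the whole table were called (2433 to 3818 with an unadjusted p under 0.05). With median-ratio scaling as well, 0, 0, 8 and 68 genes of the whole table (without VavCre replicates 1 and 2 and control replicates 1 and 2) were higher and 0 to 24 lower, and carriers and list genes called stayed at 0. The lone library of a genotype is there assumed to vary like the other genotype.

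Directions turned for 5 named carriers, none called. Under median-ratio, upper-quartile and TMM scaling and median-ratio with the block, the log2 difference was −0.24, −0.21, −0.22 and −0.24 for Slc1a5, −0.50, −0.46, −0.48 and −0.50 for Slc3a2, and −0.40, −0.37, −0.38 and −0.40 for Slc7a6. With a library left out it ranged from −0.055 to 0.25 for Slc3a2, −0.021 to 0.33 for Slc7a6 and −0.53 to 0.16 for Slc38a1, turning without control replicate 2 for Slc3a2 and without control replicate 1 for Slc7a6 and Slc38a1. With median-ratio scaling as well, in the same library order, it was −0.21, −0.27, −0.45 and −0.027 for Slc1a5, −0.47, −0.52, −0.42 and −0.57 for Slc3a2, and −0.56, −0.24, −0.65 and −0.14 for Slc7a6. It ranged from −0.18, without control replicate 2, to 0.94 for Slc7a7.

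The deviations of same-numbered libraries correlated at −0.021 over genes, so they shared no deviation across the table. That value cannot tell whether same-numbered libraries were prepared as pairs. With the replicate number as a block, 3 carriers, 1002 genes higher and 78 lower were called, and Slc1a3 lost its call.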
